A study of Mesocricetus auratus with 8 samples.

Results

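The genes described here encode proteins that hold or decorate the thick filament of striated muscle: the myomesins Myom1, Myom2 and Myom3, the M-band adaptor Obsl1, titin (Ttn), and the myosin-binding proteins Mybpc1, Mybpc2 and Mybph. They were taken by gene symbol from the deposited table, and all 8 listed symbols were found, each once, among the 17590 genes with values. Their NCBI Gene identifiers in the table are 101827618 (Myom1), 101836065 (Myom2), 101839673 (Myom3), 101835154 (Obsl1), 101830827 (Ttn), 101825646 (Mybpc1), 101834771 (Mybpc2) and 101823108 (Mybph). RNA-seq libraries of primary Syrian hamster satellite cells (SCs), the stem cells of skeletal muscle, were compared before and after cold exposure (n = 4 libraries per group). SCs came from hindlimb muscles of sexually mature wild-type male hamsters and were purified by preplating, and all were grown on Matrigel in growth medium rich in serum. Control libraries came from cells kept at 37°C, sampled on day 3 according to their titles. Cold libraries came from cells precultured for 48 h at 37°C, held for 24 h at 37°C in growth medium with 100 mM HEPES, and then kept at 4°C for 24 h. By the study's account the controls were taken just before the cold, after the same 24 h with HEPES, although their treatment labels do not name it. The treatment labels of control replicates 1 to 4 read 3, 4, 5 and 6 days at 37°C, whereas their titles give day 3 for all 4. Cold libraries were collected a day later than controls, so temperature and the added day of culture cannot be told apart. The study calls the 4 libraries of a group biological replicates. Neither it nor the labels say whether they came from separate animals or from separate cultures of the same cells, and p-values measure only the spread between these libraries.

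In a sarcomere, myosin heads pull on actin, and the thick filaments are tied together at their middle by the M band. Myomesins are the crosslinkers of the M band. Titin is the giant elastic protein that runs from the Z disc to the M band and keeps the thick filament centred. Obsl1 binds both titin and myomesin. The myosin-binding proteins sit in stripes along the thick filament, with Mybpc1 the slow skeletal form, Mybpc2 the fast skeletal form and Mybph a shorter relative. Most sarcomere genes are switched on as myoblasts leave the cell cycle and build their contractile apparatus.

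Expected counts, the read numbers estimated per gene, summed to between 16530747 and 18533801 per library. On the main axis of variation, which carried 54.5% of it, both conditions split by replicate number, with 1 and 2 apart from 3 and 4. Myogenic identity was clear in all 8 libraries. Myod1, the myoblast determination factor, lay between 424 and 693 TPM (transcript level scaled for gene length and library), and Pax7, the SC marker, between 10.8 and 16.1 TPM. Ptprc, the pan-leukocyte marker, never exceeded 0.03 TPM, and Pecam1, an endothelial marker, stayed between 0.35 and 0.89 TPM. In the same lists, Cdh5, also endothelial, lay between 1.14 and 2.19 TPM, and Cd68, a lysosomal macrophage marker, averaged 35.9 TPM and made up most of the summed leukocyte list, at 26.4–54.4 TPM in controls and 26.6–55.8 TPM in the cold. The 11 fibroblast and mesenchyme markers with values summed to 1477–2012 TPM in controls and 1463–1953 TPM in the cold. In edgeR 0 of these 11 had an adjusted p under 0.05, with or without the replicate block explained further on, nor with DESeq2, and at an unadjusted p under 0.05 the edgeR counts were 0 without and 1 with the block.

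Levels differed widely among the members. Ordered by mean TPM, which is per length, control libraries held Mybph at 40.9, Myom1 at 36.8, Ttn at 27.9, Obsl1 at 20.9, Myom3 at 10.8, Myom2 at 5.39, Mybpc1 at 0.542 and Mybpc2 at 0.130. Neighbours in this order overlapped in range between libraries, except that Myom3 lay wholly above Myom2 and Myom2 wholly above Mybpc1. The order in cold libraries was Myom1 at 26.9, Ttn at 26.5, Obsl1 at 11.01, Mybph at 8.38, Myom2 at 2.90, Myom3 at 2.63, Mybpc1 at 0.223 and Mybpc2 at 0.135 TPM. Mybph had the highest mean of the control group through replicates 1 and 2, exceeding Myom1 in only 2 of 4 control libraries, and came after Myom1, Ttn and Obsl1 by mean in the cold, where Obsl1 exceeded it in 3 of 4 libraries. Myom3 exceeded Myom2 in 4 of 4 control libraries, and Myom2 exceeded Myom3 in 3 of 4 cold libraries. The 8 genes together made up 185, 174, 99.2 and 115 TPM in control replicates 1 to 4 and 82.6, 93.3, 69.8 and 68.8 TPM in cold replicates 1 to 4. Titin held between 12.9% and 27.8% of that sum in controls and between 30.8% and 38.4% in the cold. One TPM of Ttn rested on 414 reads on average, against 22.1 for Mybph and 65.1 for Myom3, so titin was counted with the smallest sampling error of the set.

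**Figure D1:**
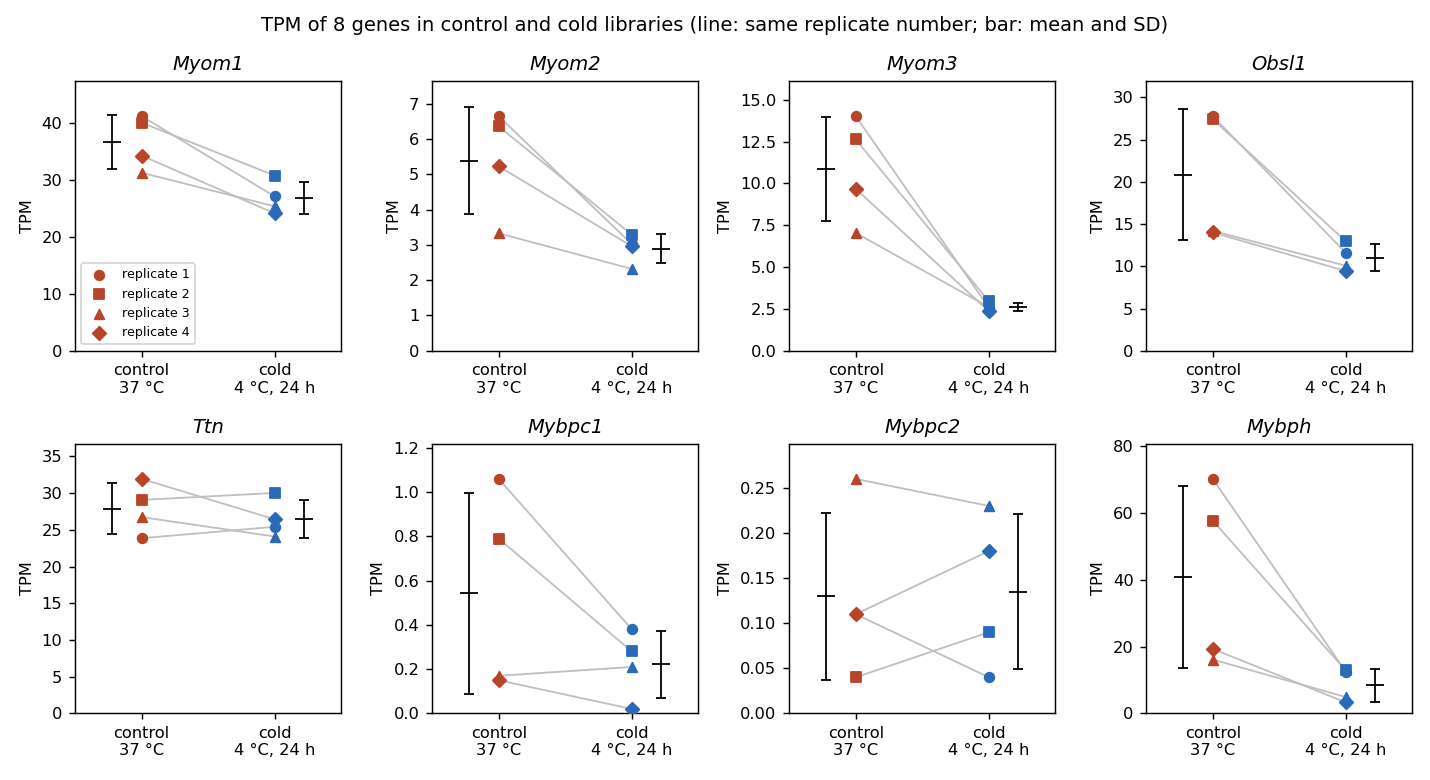
TPM (vertical axis, from 0) of each gene in control (red) and cold (blue) libraries, with a marker shape per replicate number, grey lines joining libraries of the same number, and black bars for the mean and SD (n = 4). Myom1, Myom2, Myom3, Obsl1 and Mybph were lower in all 4 cold libraries than in any control library, while the ranges of Ttn, Mybpc1 and Mybpc2 overlapped.

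In the cold, 5 of the 8 genes had TPM values that did not overlap with those of the controls, all of them lower: Myom1, Myom2, Myom3, Obsl1 and Mybph. Over the 12506 genes with enough counts to be tested, 2.41% were non-overlapping in this direction. None of the 8 was higher without overlap, where 2.27% of genes were. Myom3 and Mybph showed the largest differences, at 0.237 and 0.200 of their control levels as fitted by edgeR, and Ttn the smallest, at 0.883. Against the control of the same replicate number, cold libraries held between 65.8% and 81.1% of the TPM of Myom1, between 45.4% and 69.7% of that of Myom2 and between 41.7% and 70.8% of that of Obsl1. In bulk RNA, fewer differentiating cells and less RNA per cell cannot be told apart. For each of the 5 genes, permuting the TPM of the libraries over all 70 arrangements gave an exact two-sided p = 0.0286, the smallest p that 4 libraries against 4 allow.

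Thresholds for a call were a shift of 1 on the log2 scale and, in edgeR's quasi-likelihood test, a false discovery rate (Benjamini-Hochberg adjusted p) under 0.05. At these, 1 of the 7 members tested was lower and 0 were higher, and the background was 0.04% of genes lower (5 of 12506) and 0.0% higher. The same 1 gene passed without regard to fold, where 0.072% of genes were lower. The gene not tested was Mybpc2, which had too few counts. At an unadjusted p under 0.05, 5 of the 7 were lower, where 4.13% of genes were, and 0 were higher. DESeq2 also placed 1 of the 7 lower past both thresholds (background 0.528%), and 4 of the 7 lower at an adjusted p under 0.05 alone (background 1.1%).

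Libraries with the same replicate number deviated together across genes, and the edgeR test was therefore repeated with the number as a block. With the block, 3 of the 7 were lower past both thresholds, against a background of 0.808%, and 0 were higher. All 7 had an adjusted p under 0.05 with the block and a negative log2 fold change, where 4.07% of all genes tested were lower at that adjusted p. The median over the 7 was −0.96 on the log2 scale, or −0.90 with the block, against 0.01 over all genes tested. Fitted alone, replicates 1 and 2 placed 5 of the 7 lower past both thresholds (background 1.41%) and 6 at an adjusted p under 0.05 (background 6.85%). Replicates 3 and 4 alone placed 2 of 6 lower past both thresholds (background 0.214%) and 3 at an adjusted p under 0.05 (background 0.381%).

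**Figure D2:**
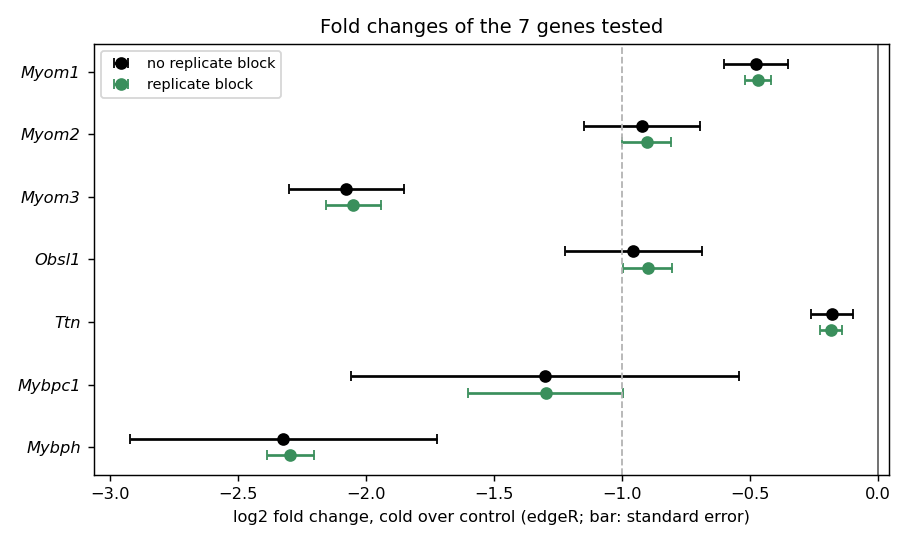
Log2 fold change of cold over control (horizontal axis) for the 7 genes tested, from edgeR without (black) and with (green) the replicate number as a block; bars are standard errors and the dashed line marks −1. The block moved the estimates little and shortened the bars, from 0.60 to 0.09 for Mybph.

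Myom3, which encodes a myomesin linked to fibers of intermediate speed, was the member called without the block. Its TPM in control replicates 1 to 4 was 14.0, 12.6, 7.04 and 9.68. In cold replicates 1 to 4 it was 2.58, 2.96, 2.61 and 2.36. The cold values were tightly grouped, the controls were spread more widely, and the groups lay far apart. Mean TPM was 10.8 ± 3.11 in controls and 2.63 ± 0.248 in the cold (SD, n = 4 each). In edgeR Myom3 fell by 2.08 ± 0.22 (SE) on the log2 scale (adjusted p = 0.0195), and with the block it fell by 2.05 ± 0.11 (adjusted p = 1.98e-10). The cold library held between 18.4% and 37.1% of the TPM of the control library of the same number. Without the block the call held when control replicate 1 or 3 was left out (edgeR adjusted p = 0.0344 and 0.0044). It was lost, with log2 differences between −2.15 and −1.99, when any other library was left out: the edgeR adjusted p was 0.0634 without control replicate 2, 0.0664 without control replicate 4, and 0.122, 0.0940, 0.0833 and 0.0952 without cold replicates 1 to 4 in turn.

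Myom1, the myomesin found in all striated muscle, was the most abundant of the 3. It had 41.3, 40.1, 31.3 and 34.3 TPM in control replicates 1 to 4 and 27.1, 30.8, 25.4 and 24.2 TPM in cold replicates 1 to 4. The highest cold value, 30.8 TPM, lay just under the lowest control value, 31.3 TPM. The edgeR estimate was −0.48 ± 0.12 (SE) on the log2 scale (adjusted p = 0.306), and with the block Myom1 fell by 0.47 ± 0.05 (adjusted p = 2.82e-06).

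Myom2, the myomesin of fast fibers and adult heart, had 6.65, 6.36, 3.33 and 5.23 TPM in control replicates 1 to 4. Cold replicates 1 to 4 had 3.02, 3.29, 2.32 and 2.96 TPM. Control replicate 3 was lowest of its group and only just above cold replicate 2. The edgeR log2 difference was −0.92 ± 0.23 (SE, adjusted p = 0.269), and −0.90 ± 0.10 with the block (adjusted p = 2.49e-06). Leaving out control replicate 3 brought it past both thresholds without the block, at −1.11 on the log2 scale with an edgeR adjusted p of 0.0325.

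The myomesins therefore did not keep their proportions. Of the summed TPM of the 3 genes, Myom3 made up 22.6%, 21.4%, 16.9% and 19.7% in control replicates 1 to 4. In cold replicates 1 to 4 its share was 7.88%, 7.99%, 8.61% and 8.01%. The mean share was 20.1% ± 2.49 in control and 8.12% ± 0.329 in cold libraries (SD, n = 4 each), which is −12.0 percentage points in the cold (exact two-sided permutation test, p = 0.0286). Myom1 took up the difference, from 69.8% ± 3.75 to 82.9% ± 0.744 (SD, n = 4 each; exact permutation p = 0.0286). The Myom2 share was 10.0% ± 1.36 in controls and 8.95% ± 0.994 in the cold (SD, n = 4 each), a difference within the spread between libraries (exact permutation p = 0.286), although all 4 pairs had the lower share in the cold. These were the 3 shares computed, and they are bound to sum to 100%, since they are parts of a whole.

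**Figure D3:**
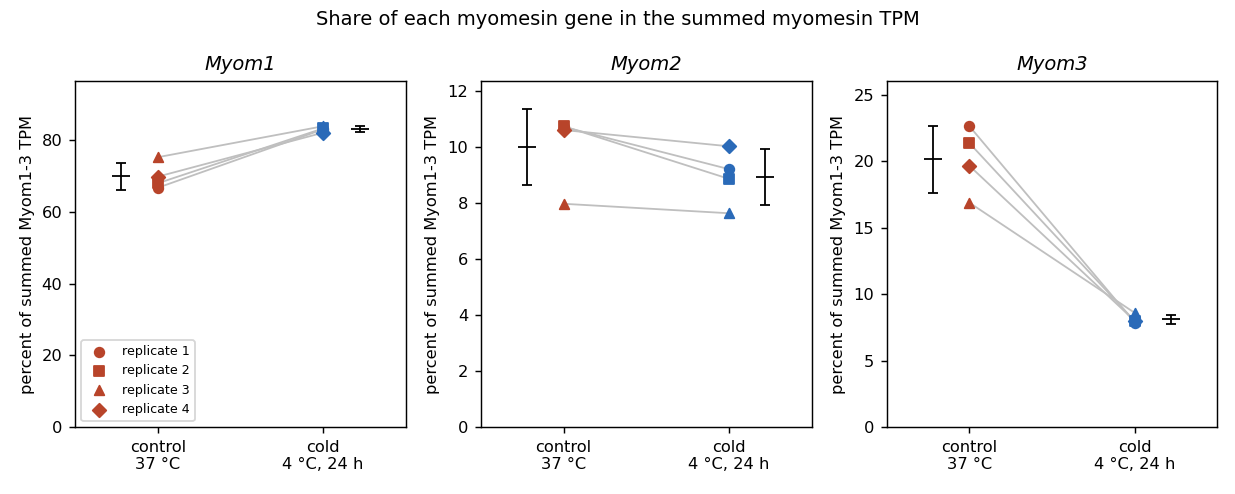
Each myomesin gene as a percent of the summed TPM of Myom1, Myom2 and Myom3 (vertical axes from 0, scaled per panel), by group, with a marker shape per replicate number, lines joining equal numbers, and bars for the mean and SD (n = 4). The share of Myom3 dropped to between 7.88% and 8.61% in the cold, and that of Myom1 rose to between 82.0% and 83.7%.

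Obsl1, which also serves as a cytoskeletal adaptor outside muscle, was split in the controls. Control replicates 1 and 2 had 27.8 and 27.4 TPM, and control replicates 3 and 4 had 14.2 and 14.0 TPM. Cold replicates 1 to 4 had 11.6, 12.95, 10.1 and 9.43 TPM. The split between replicate numbers was 1.96-fold in the controls and 1.26-fold in the cold. In edgeR the log2 difference was −0.96 ± 0.27 (SE, adjusted p = 0.360), or −0.90 ± 0.10 once the block was in the fit (adjusted p = 2.78e-06). Fitted apart, replicates 1 and 2 gave −1.23 and replicates 3 and 4 gave −0.52, and the difference between these was not tested.

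In the RefSeq annotation the interval of Inha, the inhibin alpha subunit gene, overlaps that of Obsl1. The annotation table names no chromosome, so this and the other overlaps given here were inferred from adjacent entries and their start and end positions, and whether counting used the strand is not given in the sources used here. Inha averaged 13.9 ± 8.93 TPM in controls against 2.94 ± 1.40 TPM in the cold (SD, n = 4 each), a log2 difference of −2.30 (edgeR adjusted p = 0.241), or −2.26 with the block (edgeR adjusted p = 1.50e-08). Inha had at most 332 reads in a library in which Obsl1 had 2153. Mybph likewise overlaps Adora1, an adenosine receptor gene, which averaged 17.0 ± 1.65 TPM in controls and 16.0 ± 3.00 TPM in the cold (SD, n = 4 each, edgeR adjusted p = 0.999, or 0.174 with the block). Myom2 overlaps Kbtbd11, at 0.998 ± 0.483 and 1.02 ± 0.547 TPM (SD, n = 4 each, edgeR adjusted p = 0.999), and Mybpc2 overlaps Fam71e1, at 1.04 TPM in each group. Annotated lncRNA entries also overlap Myom1 (2 entries) and Myom3 (1 entry). Counts of all 8 members were whole numbers in every library.

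Ttn gave the smallest difference of the members tested. It had 23.9, 29.1, 26.7 and 31.9 TPM in control replicates 1 to 4 and 25.4, 30.0, 24.1 and 26.4 TPM in cold replicates 1 to 4. The ranges overlapped, and cold exceeded control in replicates 1 and 2 and fell short of it in replicates 3 and 4. The means, 27.9 ± 3.43 and 26.5 ± 2.55 TPM (SD, n = 4 each), differed by less than the spread between libraries (exact two-sided permutation p = 0.514). On counts edgeR gave −0.18 ± 0.08 (SE) on the log2 scale (adjusted p = 0.766). With the block it gave −0.18 ± 0.04 (adjusted p = 0.0159), but without pair 3 of the libraries it gave −0.15 and an adjusted p of 0.103.

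Counts and TPM of Ttn differed in direction within some pairs. Scaled to library size by TMM, its counts were lower in the cold in 4 of 4 pairs, by between 0.04 and 0.33 on the log2 scale. TPM was lower in only 2 of 4. If TPM was computed as the count divided by an effective transcript length and scaled per library, as is usual, count over TPM follows the length used for the gene in that library, which can move where a gene has several annotated transcripts. The program is not named in the sources used here, and this is an assumption. Relative to the median of 8823 genes with over 5 TPM in every library, the implied log2 length of Ttn was 0.09, 0.02, 0.09 and −0.01 in control replicates 1 to 4, taking the mean of the gene as 0. In cold replicates 1 to 4 it was 0.02, −0.06, −0.04 and −0.11. It was thus shorter in the cold in 4 of 4 pairs, by a mean of 0.09 on the log2 scale, a ratio of 0.937, although the groups overlapped (exact two-sided permutation p = 0.0571).

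The variation of this length over the 8 libraries, an SD of 0.07, was larger than that of 98.7% of the 8823 genes, whose median SD was 0.0032. Myom1 and Obsl1, compared in the same way, had SDs of 0.0024 each. The RefSeq annotation (assembly BCM_Maur_2.0, which may not be the annotation behind the counts) lists 19 transcripts for Ttn and 1 each for Myom1 and Obsl1. With 1 transcript the implied length has little room to move, so Myom1 and Obsl1 cannot show how other genes with several transcripts vary. The 8823 genes were not split by their number of transcripts. Titin is known for extensive alternative splicing of its elastic I-band part. The deposited table holds values per gene only, and whether any titin transcripts differed was not tested. This measure was chosen after the data were seen.

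**Figure D4:**
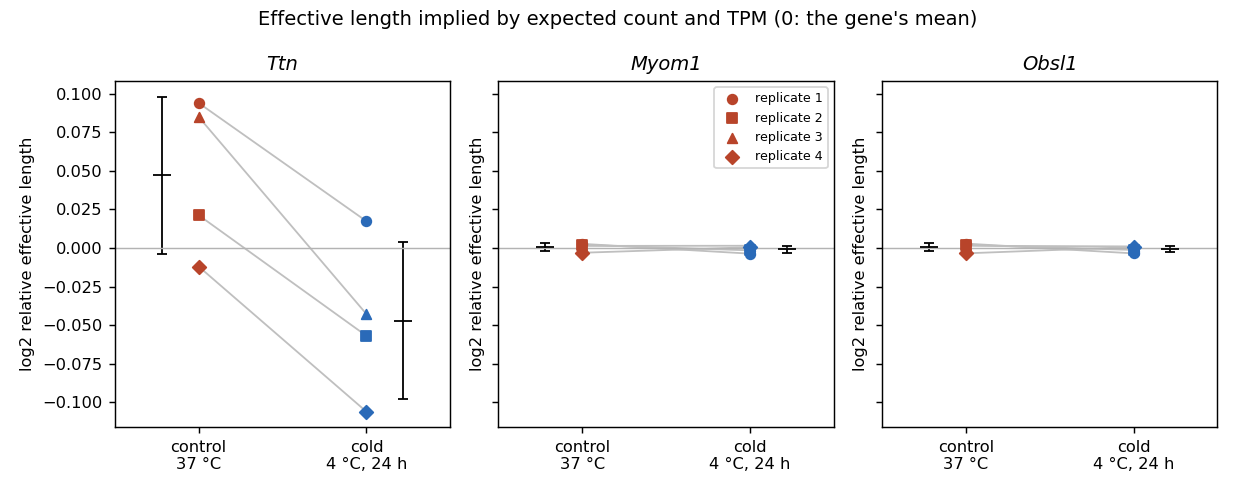
Log2 effective length implied by expected count and TPM, relative to the mean of the gene over 8 libraries (vertical axis, shared), for Ttn, Myom1 and Obsl1, with markers by replicate number, lines joining equal numbers, and bars for the mean and SD (n = 4). The Ttn values ranged from −0.11 to 0.09 and were lower in the cold in every pair, while those of Myom1 and Obsl1 stayed within 0.0036 of 0.

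Against titin, Myom1, Myom2, Myom3 and Mybph were lower in the cold, to different extents. The log2 ratio of Myom3 to Ttn TPM was −1.40 ± 0.52 in controls and −3.33 ± 0.12 in the cold (SD, n = 4 each), a difference of −1.93 (exact two-sided permutation p = 0.0286). The difference was −2.16 for Mybph, −0.79 for Myom2 and −0.38 for Myom1, each with p = 0.0286 in the same exact test. For Obsl1 it was −0.78 (exact permutation p = 0.0571), because control replicate 4 overlapped the cold libraries, although all 4 pairs had the lower ratio in the cold. The ratios of Myom1, Myom2, Myom3 and Mybph, 4 of the 7, did not overlap between groups, against a background of 0.984% of the 12495 genes with values above 0 in every library. All 7 ratios share Ttn, and those of Mybpc1 and Mybpc2, with differences of −1.32 and 0.13, differed by less than the spread between libraries (exact permutation p = 0.371 and 0.943). That of Mybpc1 was −0.37 without cold replicate 4, which held 1 read of the gene. With TMM-scaled counts in place of TPM, which leaves out the implied length, the differences were −0.28 for Myom1 and −0.69 for Myom2 and no longer non-overlapping (exact permutation p = 0.0571 each), while those of Myom3 and Mybph kept p = 0.0286. The ratio of Myom3 kept p = 0.0286 in the exact permutation test when any single library was left out. Those of Myom1 and Myom2 did not keep it when any cold replicate was left out, with exact permutation p-values of up to 0.143 for Myom1 and of 0.0571 for Myom2. That of Mybph had an exact permutation p of 0.0571 without control replicate 1 or 2 and of 0.0857 without cold replicate 3 or 4.

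Mybph, a thick filament protein of fast skeletal muscle, had both the highest mean level in the controls and, with the block, the largest change of the members. Its TPM was 70.2, 57.7, 16.1 and 19.3 in control replicates 1 to 4. Cold replicates 1 to 4 had 12.4, 12.9, 4.90 and 3.30 TPM. Replicates 1 and 2 stood 3.61-fold above replicates 3 and 4 in the controls and 3.09-fold above them in the cold, so the spread within a group was wide. Means were 40.9 ± 27.2 and 8.38 ± 4.99 TPM (SD, n = 4 each), and the edgeR log2 difference was −2.32 ± 0.60 (SE, adjusted p = 0.306). Within pairs, cold libraries held between 17.1% and 30.4% of the TPM of their control. With the block Mybph fell by 2.30 ± 0.09 (SE) on the log2 scale (edgeR adjusted p = 7.16e-12). Both subsets of libraries also gave a call when fitted alone, −2.40 for replicates 1 and 2 (edgeR adjusted p = 1.0e-12) and −2.09 for replicates 3 and 4 (edgeR adjusted p = 0.00333).

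Mybpc1, the slow skeletal myosin-binding protein C gene, was close to the limit of detection. It had 46, 36, 7 and 7 reads in control replicates 1 to 4, or 1.06, 0.79, 0.17 and 0.15 TPM. Cold replicates 1 to 4 had 18, 12, 9 and 1 reads, or 0.38, 0.28, 0.21 and 0.02 TPM. The higher values were those of replicates 1 and 2 in both groups, and replicate 3 was higher in the cold. The edgeR estimate was −1.30 on the log2 scale in both fits, with an SE of 0.76 and an adjusted p of 0.885 without the block, and an SE of 0.30 and an adjusted p of 0.0137 with it. Without the block, leaving out single libraries moved it between −1.72 and −0.76, the latter without control replicate 1, and limma on log2(TPM + 1) gave −0.30. Without pair 1 or pair 2 the gene had too few counts to be tested with the block.

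Mybpc2, the fast skeletal form, was represented by between 2 and 11 reads per library. Control replicates 1 to 4 had 0.11, 0.04, 0.26 and 0.11 TPM, and cold replicates 1 to 4 had 0.04, 0.09, 0.23 and 0.18 TPM. A difference between the groups was not detectable at this depth (exact two-sided permutation test of TPM, p = 1.00). At 2 reads, its lowest libraries lay under the floor of detection, set at 3 reads. Whether counting error covers the spread between libraries was not tested. The cardiac form Mybpc3 had a mean of 0.01 TPM in each group, and the related Mybphl was listed at 0 in every library.

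The pattern of each tested member over the 8 libraries was compared with that of 10486 other genes averaging 1 TPM or more and not named by a LOC number (10487 for Mybpc1) by the root mean square distance of centred log2 CPM (counts scaled to library size), given here as a description. Nearest to Myom3 were Hrc (distance 0.16), a calcium-binding protein of the sarcoplasmic reticulum, Slc22a3 (0.18), an organic cation transporter, and Acta1 (0.19), the skeletal muscle actin. Nearest to Mybph were Myl3 (0.30), a slow and ventricular myosin light chain, Trim54 (0.30), a ubiquitin ligase of the MuRF family, and Tnnt1 (0.34), the slow troponin T. Obsl1 lay nearest to Trim72 (0.10), a membrane repair protein, Cdkn1c (0.10), a cyclin-dependent kinase inhibitor, and Ablim3 (0.10), an actin-binding protein. Myom2 lay nearest to Filip1 (0.12), Cbfa2t3 (0.14) and Synpo2l (0.14), and Mybpc1 to Igfn1 (0.37), Mylk4 (0.39) and Peg10 (0.43). Myom1 lay nearest to Rb1 (0.04), the retinoblastoma gene, Plekha7 (0.07) and Usp20 (0.07). The genes nearest to Ttn were Yy2 (0.06), Gon7 (0.08) and Znf280b (0.08), none of which is known as a muscle structural gene, and with the block their edgeR adjusted p-values were 0.509 or more. No member was among the nearest genes of another, and the smallest distance between members was that of Myom1 and Ttn at 0.22. The distance is not scaled to how much a gene varies. Over the 8 libraries the SD of log2 CPM was 0.316 for Myom1 and 0.155 for Ttn. Obsl1 and Myom2 lay 0.23 apart, with SDs of 0.634 and 0.588.

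A list of 27 titin and M-band partners and paralogs was followed alongside, of which 25 had values and 21 were tested. Without the block edgeR called 0 of the 21. At an unadjusted p under 0.05, 10 were lower, where 4.13% of all genes were, and 0 were higher. DESeq2 called 2 of the 21 lower past both thresholds, where 0.528% of all genes were. With the block 5 were lower past both thresholds, where 0.808% of all genes were, and 0 were higher. At an adjusted p under 0.05 alone, 13 of 21 were lower with the block, where 4.07% of all genes were, and 0 were higher. On the log2 scale the list had a median of −0.31, or −0.30 with the block. Of its 21 genes 20 were below 0, where 5894 of all 12506 genes were.

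The largest change among these partners was that of Trim54, whose protein associates with microtubules, the Z disc and the M band. It went from 2.58 ± 1.73 to 0.340 ± 0.193 TPM (SD, n = 4 each), and with the block edgeR gave −2.94 ± 0.27 (SE) on the log2 scale (adjusted p = 4.15e-07). This estimate rests on between 2 and 8 reads in each cold library, near the floor of 3 reads, against between 15 and 71 in the controls. Myot, the Z-disc protein myotilin, had −1.79 with the block (edgeR adjusted p = 0.000158). Ckm, the muscle creatine kinase that also sits at the M band, had −1.46 (edgeR adjusted p = 2.24e-05 with the block). Igfn1, an immunoglobulin and fibronectin domain protein, had −1.24, and Mypn, the Z-disc protein myopalladin, had −1.15, with edgeR adjusted p-values of 9.64e-07 and 2.64e-05 with the block.

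The 2 most abundant partners differed little. Ankrd1, a stress-responsive protein that binds the N2A region of titin, averaged 1368 ± 96.1 TPM in controls and 1294 ± 114 TPM in the cold (SD, n = 4 each), −0.10 on the log2 scale (edgeR adjusted p = 0.156 with the block). Eno3, the muscle enolase, was at 786 ± 88.5 and 690 ± 65.6 TPM (SD, n = 4 each), and with the block it was lower by a log2 difference of −0.20 (edgeR adjusted p = 0.0111).

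**Figure D5:**
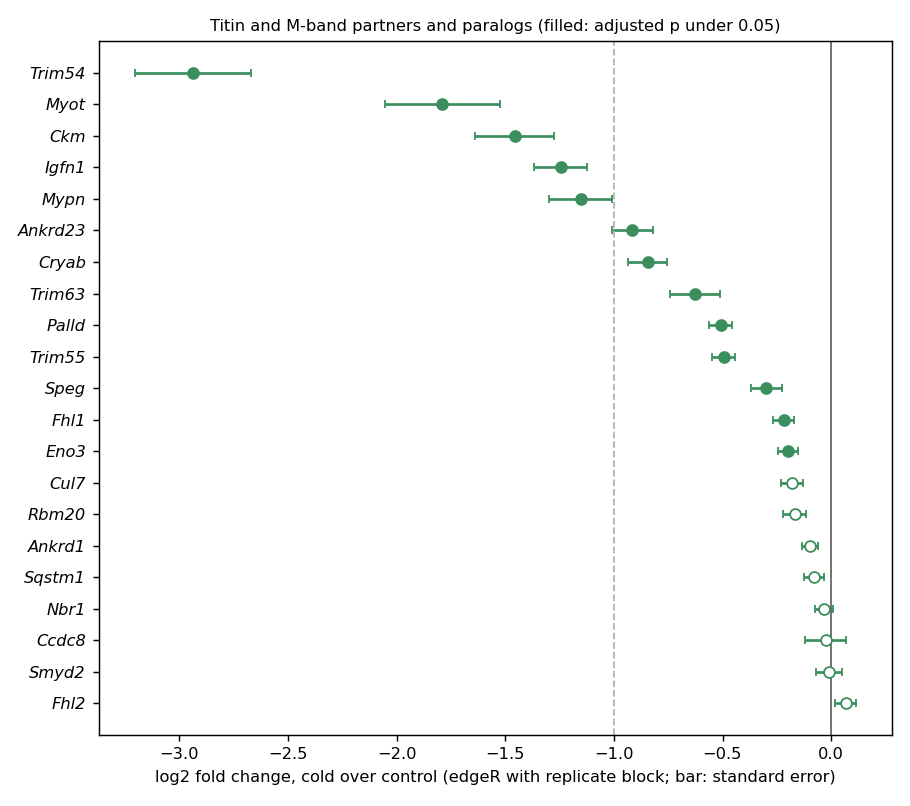
Log2 fold change of cold over control (horizontal axis) for the 21 tested titin and M-band partners and paralogs, from edgeR with the replicate block; bars are standard errors, filled points have an adjusted p under 0.05, and the dashed line marks −1. The points run from −2.94 for Trim54 to 0.07 for Fhl2, and 13 of 21 are filled, all of them below 0.

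Other muscle lists are given for comparison with the members. Of 9 sarcomeric myosin genes tested, 1 was lower past both thresholds without the block (background 0.04%) and 5 with it (background 0.808%). Their median without the block was −1.16 on the log2 scale. Myh3, the embryonic myosin heavy chain, had −1.41 with the block (edgeR adjusted p = 1.50e-10, or 0.135 without it). Its expected counts held decimals, and the reason is not given in the sources used here. Of 17 early differentiation genes tested, edgeR called 0 without the block. At an unadjusted p under 0.05, 9 were lower (background 4.13%) and 0 higher. DESeq2 called 3 lower past both thresholds (background 0.528%). With the block 3 of the 17 were lower past both thresholds (background 0.808%), and the median was −0.61 (−0.64 without it). Myog, which drives terminal differentiation, was among the 17 and had −0.71 with the block (edgeR adjusted p = 2.96e-09, or 0.824 without it). Mef2c, a transcription factor of sarcomere genes, averaged 23.2 TPM in controls and 8.44 TPM in the cold, −1.43 on the log2 scale with the block (edgeR adjusted p = 3.43e-09, or 0.224 without it).

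Lists for other cells and for proliferation are given last. Past both thresholds edgeR (either fit) and DESeq2 called 0 of the 14 SC and myoblast genes, 8 smooth muscle and pericyte genes, 3 endothelial genes, 2 macrophage and leukocyte genes and 16 cell cycle genes tested. At an unadjusted p under 0.05 in edgeR without the block, 1 smooth muscle gene was lower and 7 of the 16 cell cycle genes were higher, with 0 in the other 3 lists, where 516 of all 12506 genes were lower and 322 higher. The 8 smooth muscle and pericyte genes, which include an actin gene that early myoblasts also express, summed to 1373–2259 TPM in controls and 1231–1546 TPM in the cold. The 16 cell cycle genes summed to 1821–2067 TPM in controls and 2056–2195 TPM in the cold. All 16 had a log2 difference above 0, with a median of 0.12, whereas 5894 of all 12506 genes lay below 0. At an adjusted p under 0.05 alone, 4 of these 16 were higher with the block, where 1.26% of all genes were. At the same setting, where 4.07% of all genes were lower, 3 of the 14 SC and myoblast genes were lower and 1 was higher. Of the 8 smooth muscle and pericyte genes 1 was lower, and 0 of the fibroblast, endothelial and leukocyte genes moved in either direction. Whether the makeup of the cultures had a part in the lower sarcomere values was not tested.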

How the data were processed

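RNA of polyA type from cultured hamster SCs was sequenced in paired-end reads, 4 control and 4 cold libraries. The submitters' processing notes name HISAT and HISAT2. Neither the program used for counting nor the build or strand setting is given in the sources used here. The authors deposited, per gene and library, expected counts that are not normalized, TPM values scaled within each library and rounded to hundredths, and a normalized signal, which is the count rounded up times a factor per library between 0.924 and 1.02 and was used for this check only. All 24 per-sample columns were mapped by library name. All 17590 gene identifiers with values were found in the RefSeq table, which was used for names, neighbours and transcript numbers.

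Expected counts were rounded and fitted with edgeR 4.0.16 in R 4.3.3 (filterByExpr, TMM, quasi-likelihood test, cold versus control, 12506 genes), and adjusted p-values cover all genes tested. Standard errors were back-calculated from each estimate and its F statistic. Alternatives used DESeq2 1.42.0 and limma 3.58.1 on log2(TPM + pseudocount), the pseudocount being 0.1 or 1. Scripts were tested on simulated data. Single values were compared in exact two-sided permutation tests. A count of 3 was taken as the floor of detection, which covers counting error only. Figures were drawn with matplotlib 3.10.9.

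The groups share replicate numbers in the library names, and no source says what a number marks. Deviations from the group mean correlated across genes at 0.61, 0.62, 0.65 and 0.66 between libraries of equal number, at 0.43 to 0.59 between numbers 1 and 2 or 3 and 4, and at −0.55 to −0.61 otherwise. Much of this is the split of numbers 1 and 2 from 3 and 4, but each library correlated best with its own number. The numbers were taken to pair the libraries, and blocked values are given where a call differs.

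The members and lists were chosen with earlier results of these data known, and 1 item of the partner list is not reported here. All 8 members are named. From the partner list, genes called in either edgeR fit and the 2 with the highest mean TPM are named, along with Myog, Myod1, Pax7, Myh3 and Mef2c, the nearest genes by pattern, and annotated neighbours.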

Additional observations from a re-analysis of the deposited data

Results flagged for a closer look

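Of 38 groups of 4 libraries compared by Dixon's criterion (members' TPM, ratios to titin, myomesin shares and the implied length of titin), 1 held an isolated value, where chance gives about 1.9. It was the share of Myom2 in the summed myomesin TPM of control replicate 3, 7.99%, whereas the other controls lay between 10.6% and 10.8%. The share of Myom2 was also lowest in cold replicate 3 of its group, at 7.65%.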

How the results depend on the processing

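Direction was stable: all 151 log2 fold changes of the 7 tested members under the alternatives run were negative. Calls, by contrast, varied with the settings and with the libraries kept. Without the block, leaving out single libraries gave between 0 and 33 genes lower and between 0 and 1 higher over all genes, and between 0 and 2 members lower. The 33 genes and the 2 members, Myom3 and Myom2, came without control replicate 3. With the replicate block, 101 genes were lower and 5 higher past both thresholds, with 3 members lower (Myom3, Mybph and Mybpc1). The block without pairs 1, 2, 3 and 4, added after seeing the data, gave 2 of 6, 2 of 6, 5 of 7 and 4 of 7 members, where 81 of 12538, 97 of 12539, 131 of 12476 and 114 of 12454 genes were lower. Replicates 1 and 2 alone gave 175 genes lower and 8 higher, with 5 members, and replicates 3 and 4 alone gave 27 lower and 1 higher, with 2 members. Genes lower numbered 66 with DESeq2, 8 with library totals, 15 with no filter, 3 with a mean of 10 counts in each group, 9 with no fold threshold, and 2 or 3 with limma and a pseudocount of 0.1 or 1. Limma with 0.1 called 0 members, because the adjusted p of Myom3 was then 0.0592. With DESeq2, Myom1, Myom2, Myom3 and Obsl1 had adjusted p-values of up to 0.0372, and that of Mybph was 0.0659. The cause of these differences was not tested.

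On counts in place of TPM, the difference in log2 ratio to titin was −0.28 for Myom1 and −0.69 for Myom2, each with an exact permutation p of 0.0571. With single libraries left out, the differences ranged from −0.47 to −0.25 for Myom1, −0.98 to −0.60 for Myom2, −1.01 to −0.54 for Obsl1 (exact permutation p = 0.0286 without control replicate 4), −2.50 to −1.73 for Mybph, −1.84 to −0.37 for Mybpc1 and −0.36 to 0.60 for Mybpc2. The myomesin shares and the direction of the implied titin length did not change call. Depth limits Mybpc1 and Mybpc2, with at most 46 and 11 reads.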
